A study of Mus musculus with 17 samples.

Results

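The genes described here are 40 genes of the MYC network and of ribosome biogenesis in mouse Th2 cells, chosen by symbol from a list and found for all 40 among the 24537 genes of each library. They comprise the transcription factor gene Myc and its partner Max, 4 genes of RNA polymerase I transcription, 4 genes of abundant nucleolar proteins, 7 genes of small nucleolar ribonucleoproteins (snoRNPs), 7 genes of small subunit assembly, 14 genes of large subunit assembly and 2 genes of translation initiation. RNA of sorted cells was sequenced by Smart-seq2, a method for small numbers of cells, giving 17 libraries, which fall into 6 groups. GATIR mice, in which a yellow fluorescent reporter marks Gata3, gave Th2 cells of the airway, washed out by bronchoalveolar lavage (BAL-GATIR, 3 libraries), and Th2 cells of the draining mediastinal node (MLN-GATIR, 3). The titles label all GATIR libraries WT. Mice with the OTII transgene, a T cell receptor specific for ovalbumin, gave node cells as OTII_Notch1/2-KO cells (MLN-OTII-KO, 4) and as OTII cells without the knockout (MLN-OTII-WT, 3). All these mice had an allergen-driven inflammation of the airways, and the column headers name OVA and HDM. The last pair of groups, cult-OTII-KO (2) and cult-OTII-WT (2), held naive T cells of the spleen of both genotypes after 7 days of culture with IL-4, a stimulus through CD3 and CD28, and antibodies to IFN-γ and to IL-12/23. How Notch1 and Notch2 were deleted and the age of the animals are not given in the sources used here. The design calls the replicates biological without saying whether each is a separate animal, so p-values measure only the spread between these libraries.

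MYC is a transcription factor that binds DNA as a dimer with MAX, and it raises transcription of many genes needed for growth, ribosome assembly among them. Ribosomes are assembled in the nucleolus, where RNA polymerase I makes the precursor of ribosomal RNA, snoRNPs guide its chemical modification and cleavage, and assembly factors build the small and the large subunit. T cells that have met antigen switch this program on before they divide, and MYC is among the first factors induced by the T cell receptor.

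The best known binding site of MYC and MAX dimers is the E-box CACGTG, which reads the same on both strands, so that 1 search covers both. It was looked for in the RefSeq promoter windows of GRCm38.p6, which run from 250 bases before to 50 after a gene's start. No other motif was searched. Of the 40 genes 33 had a window, and 9 of these (27.3%) held the motif, against 8.09% of all 27025 genes with a window and 12.9% of the 5264 genes with at least 1 scaled RPKM in every library. RPKM is a read count per length of transcript and depth of library, and scaled means divided by 1 factor per library. Counted by window, 23.7% of 38 member windows and 7.15% of all 32851 windows of 300 bases held it. The stretches below are those of the 5 motif-bearing genes that passed the test as lower in the node KO libraries, with that of Max, which did not pass, for comparison. Capitals mark the E-box, and each stretch is printed 5′ to 3′ on the gene's strand.
Nop2 (chr6:125131811-125131840, + strand, before the start): gtgtccctggatCACGTGtgttccggtgcc
Eif4a1 (chr11:69672595-69672624, - strand, before the start): cgatcgcctccgCACGTGtaaaggtgctgg
Mybbp1a (chr11:72441347-72441376, + strand, after the start): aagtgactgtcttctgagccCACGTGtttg
Nle1 (chr11:82908355-82908384, - strand, after the start): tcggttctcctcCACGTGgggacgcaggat
Wdr43 (chr17:71616220-71616249, + strand, after the start): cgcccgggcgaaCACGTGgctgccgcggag
Max (chr12:76962234-76962263, - strand, across the start): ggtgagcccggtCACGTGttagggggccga
The motif also lay in the windows of Eif4e, Utp20 and Pes1, at 2 places in that of Eif4e. In the node KO libraries 5 of the 9 genes with the motif fell, as did 15 of the 24 genes with a window but no motif. Of the 7 genes with no window in the table (Myc, Npm1, Fbl, Bop1, Rrp12, Rrs1 and Tcof1) 5 fell. A match says only that these letters are present, and the start in the table is not always that of the transcript used in the files. For Mybbp1a that transcript starts at 72441378, so the stretch marked after the start lies before it.

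The libraries stood on 16.3 to 27.5 M reads (M for mega), read back from the RPKM steps, and 33 of the 40 genes had at least 1 scaled RPKM in every library. Levels are not compared between GATIR and OTII libraries, since 1644 genes were listed under another transcript there, among them Nolc1, Rrp1b and Gnl3. Notch1 was lower in the KO-labelled libraries, at 10.9 ± 2.31 against 47.9 ± 1.47 in WT in the node (adjusted p = 5.49e-05) and 1.06 and 4.23 against 26.3 and 29.4 in WT in culture (adjusted p = 0.333). Dtx1, a target gene of Notch, had 0.898 ± 0.216 in the node KO libraries and 43.7 ± 7.93 in WT (adjusted p = 1.31e-06). Its KO mean lay below the minimum for the test, 1 scaled RPKM, so without its WT level it might not have been tested. Notch2 went against the label in the node, with 16.2 ± 2.09 in KO and 7.88 ± 0.305 in WT (adjusted p = 5.95e-04), and a level over the whole transcript does not show whether the deleted part was lost. The libraries are therefore called KO-labelled or, in short, KO. Of the 10 T cell markers 7 were in the tables, and their summed level lay between 1396 and 3831 in every library. Gata3, the defining factor of Th2 cells, had 354 to 481 in BAL-GATIR and 339.8 to 442 in MLN-GATIR, and 35.3 to 45 in MLN-OTII-KO, 51.8 to 62.2 in MLN-OTII-WT, 85.3 to 87.2 in cult-OTII-KO and 55.2 to 70.0 in cult-OTII-WT. The 7 Th2 markers did not move together in the node. Of these, 1 rose in KO (Ccr8, log2 fold change 2.02, adjusted p = 3.55e-04) and 3 fell, Gata3 and Il4 among them. Their summed level was 184 to 220.3 in MLN-OTII-KO and 151 to 201 in MLN-OTII-WT. One library stood apart: pairs of MLN-OTII-KO libraries with replicate 2 differed by an SD of 0.276 to 0.385 on the log2 scale, and the other KO pairs by 0.149 to 0.237. In sorted bulk samples, fewer cells of a type and less RNA per cell cannot be told apart.

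The first question was whether these genes differ between Notch1/2-KO and WT Th2 cells of the node. In the node KO libraries 25 of the 40 genes fell, none rose, and all 40 had a negative log2 fold change. Every role was represented: Ddx21, Mybbp1a and Nolc1 showed the largest falls, at about the same size, and Myc itself fell. The median log2 fold change of the 40 genes was -0.54, against 0.02 over all 10869 genes tested. Over all genes 18.1% passed the test, 10.4% higher and 7.68% lower, where passing means an adjusted p of at most 0.05 (limma on log2(scaled RPKM + 1), two-sided, Benjamini-Hochberg over all genes tested). All 40 genes met the minimum for the test, which was 1 scaled RPKM in at least 3 libraries. In 31 of the 40 every KO library lay below every WT library, which held for 14.1% of all genes tested. The heatmap of all 40 genes by library shows this as a block of low values in the 4 node KO columns.

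**Figure D1:**
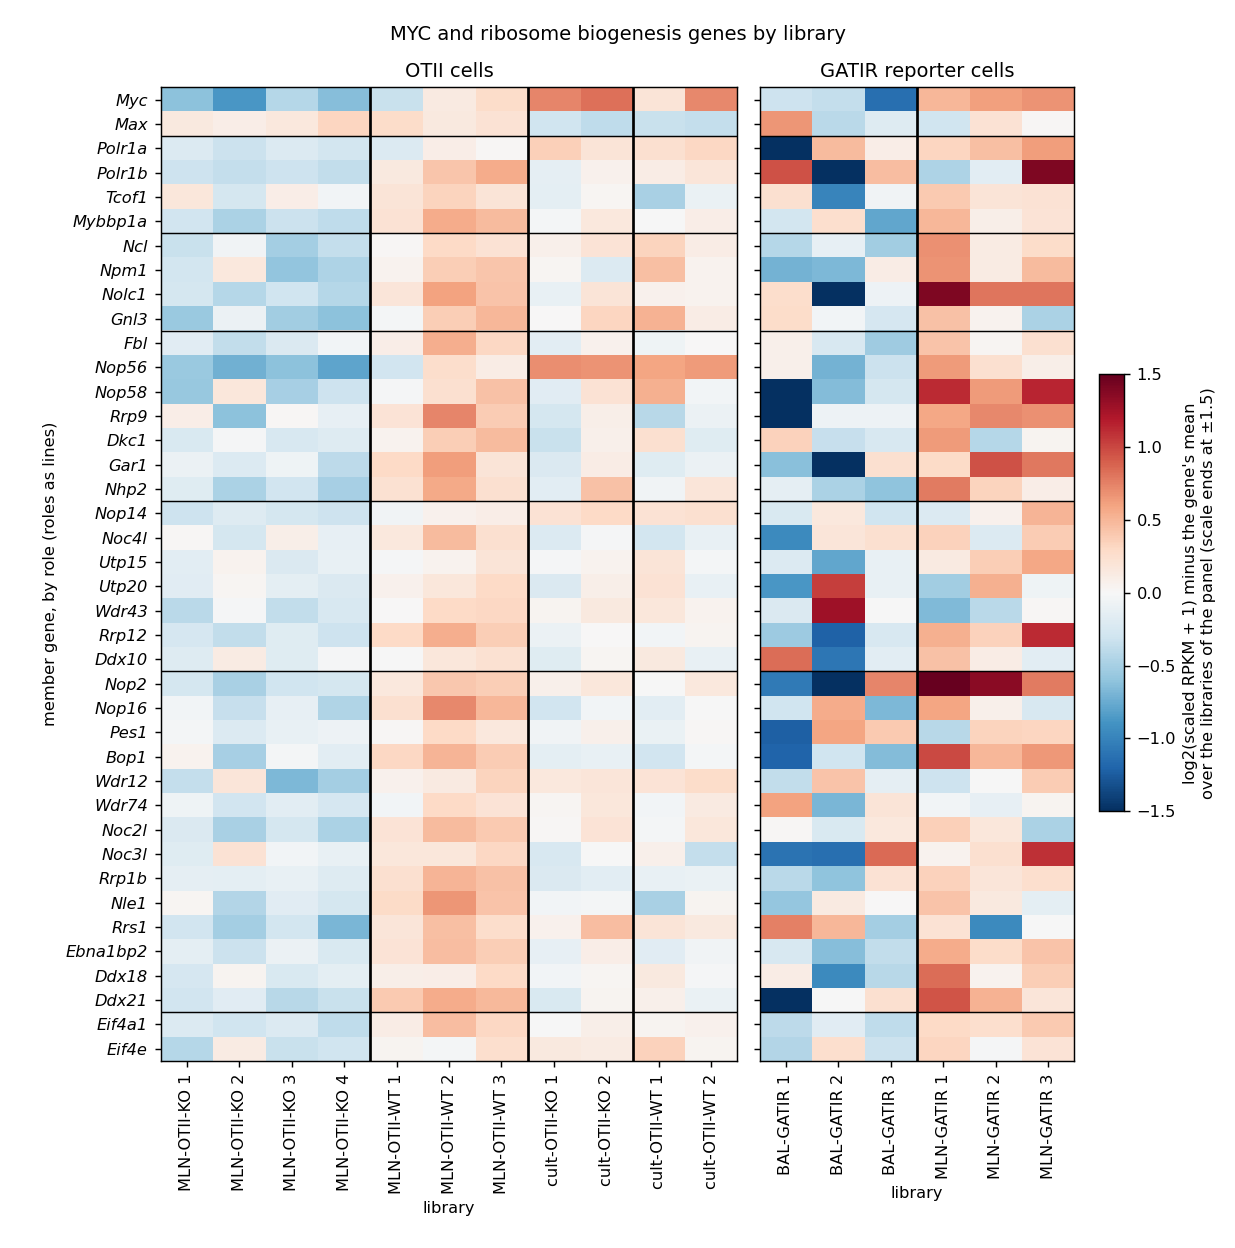
Level of each of the 40 genes (rows, grouped by role) in each library (columns), as log2(scaled RPKM + 1) minus the gene's mean over the libraries of its panel, OTII libraries in 1 panel and GATIR libraries in the other. In the node, KO columns are low for most genes (25 of 40 fell) and WT columns are high, while culture columns show no such split by genotype.

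The MYC pair split in the node. Myc (chr15:61985341-61990361, + strand, mm10) had 18.1, 14.9, 20.7 and 17.7 scaled RPKM in MLN-OTII-KO, against 22.2, 31.1 and 34.4 in MLN-OTII-WT. Every KO library lay below the lowest WT library, and the means were 17.9 ± 2.36 and 29.2 ± 6.33 (SD). Its log2 fold change was -0.67 (SE 0.16, 95% interval -1.02 to -0.31, adjusted p = 0.0186). That call was lost without WT replicate 2, WT replicate 3 or KO replicate 4, at an adjusted p of up to 0.0850. Max (chr12:76937269-76962248, - strand), the obligate partner of MYC in DNA binding, had 45.2, 43.9, 45.7 and 51.4 in MLN-OTII-KO, against 49.5, 45.2 and 47.7 in MLN-OTII-WT. The groups overlapped, and the log2 fold change was -0.03 (95% interval -0.21 to 0.15, adjusted p = 0.835).

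Of the 4 genes of RNA polymerase I transcription, 2 fell in the node KO libraries (median log2 fold change -0.48). Mybbp1a (chr11:72441378-72451550, + strand), a nucleolar MYB-binding protein that takes part in ribosomal RNA transcription and processing, had 39.6, 34.7, 38.6 and 36.9 in MLN-OTII-KO, against 56.4, 71.7 and 67.7 in MLN-OTII-WT. All KO libraries lay below all WT libraries, with means of 37.4 ± 2.14 and 65.3 ± 7.92, and the log2 fold change was -0.78 (adjusted p = 9.68e-04, SE 0.10). Polr1b (chr2:129100996-129126595, + strand), the second-largest subunit of the polymerase, had 5.48, 5.31, 5.50 and 5.24 in MLN-OTII-KO, against 7.95, 9.74 and 10.9 in MLN-OTII-WT. The KO values differed little from each other and all lay below WT (log2 fold change -0.71, adjusted p = 0.00276). Polr1a, the largest subunit, and Tcof1, which encodes the nucleolar protein treacle, did not pass, at log2 fold changes of -0.22 and -0.25.

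Among the abundant nucleolar proteins 3 of 4 genes fell (median -0.65), and the summed level of the 4 was 267 to 403 in MLN-OTII-KO and 405 to 506 in MLN-OTII-WT. Nolc1 (chr19:46075847-46085543, + strand), a chaperone of snoRNPs, had 24.9, 22.1, 24.2 and 22.1 in MLN-OTII-KO, against 34.3, 46.2 and 40.7 in MLN-OTII-WT. These groups did not overlap (log2 fold change -0.76, adjusted p = 0.00182). Gnl3 (chr14:31012433-31019131, - strand), which encodes nucleostemin, a nucleolar GTPase, had 12.8, 18, 13.1 and 12.2 in MLN-OTII-KO, against 18.8, 25.1 and 27.6 in MLN-OTII-WT. KO replicate 2 came close to the lowest WT library, and the log2 fold change was -0.72 (adjusted p = 0.0148). The Gnl3 call was lost without WT replicate 2 or 3, at an adjusted p of up to 0.0689. Ncl, which encodes nucleolin, had 88.5, 108, 78.6 and 87.1 in MLN-OTII-KO, against 114, 138 and 131 in MLN-OTII-WT (log2 fold change -0.50, adjusted p = 0.0184). Npm1, which encodes nucleophosmin, was the most abundant of the 40 genes per length and overlapped between groups, with 189, 255, 151 and 166 in MLN-OTII-KO, against 237, 297 and 307 in MLN-OTII-WT. It just missed the threshold (log2 fold change -0.58, adjusted p = 0.0507), and its level is uncertain because the mouse genome holds processed copies of it.

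The snoRNP genes encode the protein cores of the particles that methylate ribosomal RNA (box C/D) or turn uridine into pseudouridine (box H/ACA), and 5 of 7 fell in the node KO libraries (median -0.56). Nop56 (chr2:130274412-130279313, + strand), a box C/D scaffold, had 44, 39.2, 42.0 and 37.2 in MLN-OTII-KO, against 53.1, 78.4 and 70.1 in MLN-OTII-WT. Its groups did not overlap (means 40.6 ± 2.99 and 67.2 ± 12.9, log2 fold change -0.70, SE 0.13, adjusted p = 0.00675). Nhp2 (chr11:51619773-51623714, + strand), a box H/ACA subunit, had 43.0, 35.1, 40 and 34.4 in MLN-OTII-KO, against 57.5, 73.5 and 58.2 in MLN-OTII-WT. All KO values were lower here too (log2 fold change -0.71, adjusted p = 0.00385). The methyltransferase gene Fbl (-0.52, adjusted p = 0.0177), the pseudouridine synthase gene Dkc1 (-0.47, adjusted p = 0.0229) and Gar1, another H/ACA subunit (-0.56, adjusted p = 0.0135), also fell. Nop58, the other box C/D scaffold, and Rrp9, a protein of the U3 particle, missed the threshold at log2 fold changes of -0.52 and -0.59 (adjusted p = 0.0813 and 0.0541). Nop56, Dkc1 and Nhp2 overlap Idh3b, Mpp1 and Rmnd5b on the other strand, and likewise Gnl3 overlaps Glt8d1, Wdr43 Snord53, Bop1 Mroh1 and Scx, and Noc2l Samd11. Whether the counting used strand is not given in the sources used here, so reads of such pairs cannot be told apart.

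Small subunit assembly had the smallest median of the roles with more than 2 genes, at -0.30, and 3 of its 7 genes fell. Rrp12 (chr19:41862851-41896153, - strand), which takes part in the maturation and export of pre-ribosomes, had 6.16, 5.60, 6.53 and 5.88 in MLN-OTII-KO, against 9.48, 11.5 and 10 in MLN-OTII-WT. The groups lay well apart (means 6.04 ± 0.400 and 10.3 ± 1.05, log2 fold change -0.68, adjusted p = 0.00193). Wdr43 (chr17:71616215-71659031, + strand), a part of the processome that cuts the precursor RNA, had 17.9, 23.7, 18.4 and 20.1 in MLN-OTII-KO, against 24.1, 29.6 and 29.9 in MLN-OTII-WT. KO replicate 2 nearly reached WT (log2 fold change -0.46, adjusted p = 0.0283), and the call was lost without WT replicate 2 or 3 or KO replicate 1, 3 or 4, at an adjusted p of up to 0.123. The third that fell was Nop14 (-0.30, adjusted p = 0.0290). Noc4l, Utp20, Utp15 and the helicase gene Ddx10 did not pass, at log2 fold changes of -0.36, -0.30, -0.18 and -0.20.

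Large subunit assembly gave 10 falls among 14 genes (median -0.55), and the summed level was 279.8 to 311 in MLN-OTII-KO and 404 to 479.6 in MLN-OTII-WT. Ddx21 (chr10:62580247-62602298, - strand), an RNA helicase that binds both ribosomal DNA chromatin and snoRNAs, had 44.6, 48.5, 40.6 and 43.1 in MLN-OTII-KO, against 72.2, 81.1 and 76.9 in MLN-OTII-WT. No other of the 40 genes had a smaller p here, with means of 44.2 ± 3.28 and 76.7 ± 4.41, and its log2 fold change was -0.78 (adjusted p = 4.55e-04, SE 0.08). Noc2l (chr4:156236010-156247616, + strand), whose yeast counterpart escorts the pre-60S particle out of the nucleolus, had 53.3, 44, 51.5 and 44.4 in MLN-OTII-KO, against 71.8, 86.4 and 81.5 in MLN-OTII-WT. Its groups did not overlap (log2 fold change -0.72, adjusted p = 0.00182). The further 8 that fell were Rrs1 (-0.73), Nop16 (-0.72), Nle1 (-0.67), the rRNA methyltransferase gene Nop2 (-0.64), Bop1 (-0.56), Ebna1bp2 (-0.54), Rrp1b (-0.54) and Wdr74 (-0.34), with adjusted p between 0.00228 and 0.0458. BOP1 works in a complex with PES1 and WDR12, and of the 3 genes only Bop1 passed: Pes1 stood at -0.26 (adjusted p = 0.0749) and Wdr12 at -0.52 (adjusted p = 0.0871). Noc3l (-0.25) and the helicase gene Ddx18 (-0.31) did not pass either.

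Of the 2 initiation genes, which encode parts of the complex that loads mRNA onto the ribosome, Eif4a1 fell and Eif4e did not pass. The helicase gene Eif4a1 (chr11:69666936-69672423, - strand) had 70.2, 66.0, 70.6 and 62.3 in MLN-OTII-KO, against 88.2, 112 and 101 in MLN-OTII-WT. Its groups did not overlap (log2 fold change -0.56, adjusted p = 0.00451). The cap-binding gene Eif4e (chr3:138526191-138559696, + strand) had 8.10, 12.3, 8.65 and 8.96 in MLN-OTII-KO, against 11.6, 11 and 13.5 in MLN-OTII-WT. KO replicate 2 lay inside the WT range (log2 fold change -0.32, adjusted p = 0.148).

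The number of falls depended on single libraries: 15 of the 40 genes fell without WT replicate 2, 16 without WT replicate 3 and 32 without KO replicate 2, the library that stood apart. Of the 25 calls 15 held whichever library was left out. The 10 that did not were Myc, Ncl, Gnl3, Fbl, Dkc1, Gar1, Nop14, Wdr43, Bop1 and Wdr74. The column headers of these libraries carry 2 numbers, and libraries that share one may share a source. The first is shared by WT replicates 2 and 3, KO replicates 1 and 2, and KO replicates 3 and 4. The second is shared by WT replicates 1 and 2, KO replicates 1 and 3, and KO replicates 2 and 4. Pairs of the first number differed by an SD of 0.175, 0.385 and 0.176 on the log2 scale. Pairs of the second differed by 0.188, 0.149 and 0.276. The labels do not say what either number marks. Averaging pairs of the first number (below, libraries of a shared header number) was an alternative chosen after seeing the data. With it, 21 genes fell and 20 of the 25 calls were kept.

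**Figure D2:**
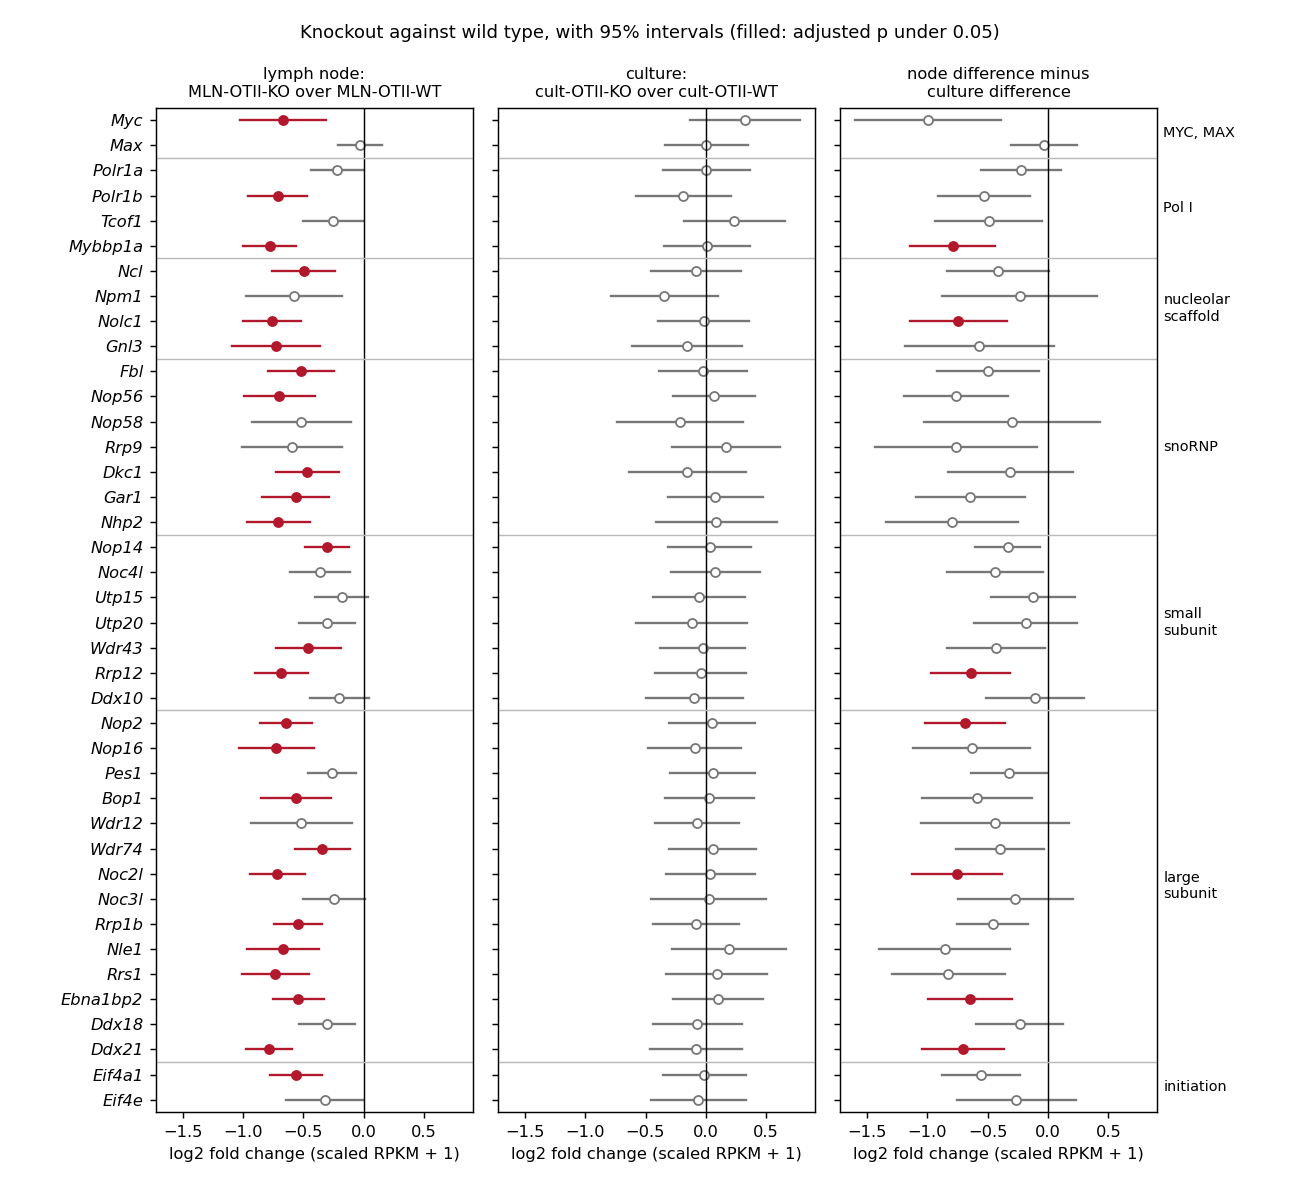
Log2 fold change of each of the 40 genes with its 95% interval, for KO over WT in the node, KO over WT in culture, and the node effect minus the culture effect. Filled points passed at an adjusted p of 0.05: 25 genes in the node, 0 in culture and 7 in the difference.

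Other genes of these pathways, from lists of general knowledge, were set beside the 40 genes in the same node comparison. The lists were chosen with earlier results of these data known. Of 40 further small subunit factors 14 fell and 0 rose (median log2 fold change -0.25), with the smallest p for Pno1 (-0.66, adjusted p = 0.00164), Pwp2 (-0.62, adjusted p = 0.00177) and Tsr1 (-0.70, adjusted p = 0.00342). Of 40 further large subunit factors 14 fell and 0 rose (median -0.31), led by Mrto4 (-0.72), Rrp15 (-0.64) and Ppan (-0.83). In each of these lists 26 of the 40 genes did not pass, and 3 and 1 of them had a positive log2 fold change. Of 12 further RNA polymerase I genes 1 fell (Polr1e, -0.32, adjusted p = 0.0404), with a median of -0.07, and of 20 genes of RNA polymerase III, which makes 5S RNA and transfer RNA, 2 fell (Polr3d and Polr3e), with a median of -0.02. The medians of the polymerase lists thus lay near that of all genes, 0.02. A negative log2 fold change was found for 10 of the 12 polymerase I genes and 11 of the 20 polymerase III genes. Among 33 ribosomal protein genes tested, 2 fell (Rpl27, -0.68, adjusted p = 0.0247, and Rps19, -0.32, adjusted p = 0.0458) and the median was -0.17. The log2 fold change was negative for 30 of these 33 genes. Of 24 further initiation factors 4 fell and 21 had a negative log2 fold change (median -0.24), with the smallest p for Eif3b (-0.48, adjusted p = 0.00595).

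Metabolic genes known as MYC targets moved most often among the added lists: 21 of 30 fell and 1 rose (median -0.48). Srm, the spermidine synthase gene, had 23.0 ± 2.99 in MLN-OTII-KO and 52.2 ± 9.53 in MLN-OTII-WT (log2 fold change -1.14, adjusted p = 8.63e-04). Mthfd2, a mitochondrial folate enzyme, and Ctps, which makes CTP, fell by 0.57 and 0.67 on the log2 scale. The single riser, named after its value was seen, was Odc1, which makes the polyamine precursor of the Srm reaction, at 43.2 ± 2.80 in MLN-OTII-KO and 32.2 ± 4.88 in MLN-OTII-WT (log2 fold change 0.42, adjusted p = 0.0294). Of 8 tested genes of MYC and MAX relatives 1 rose and 0 fell: Mxd4, which encodes a MAX partner that represses transcription, had 70.7 ± 14.8 in MLN-OTII-KO and 40.6 ± 4.46 in MLN-OTII-WT (log2 fold change 0.76, adjusted p = 0.0139, lost without WT replicate 2). Of 16 genes upstream of or within mTORC1 signalling 3 rose, namely Rptor (0.59, adjusted p = 0.00754), Ddit4 (0.71, adjusted p = 0.0323) and Sesn1 (0.39, adjusted p = 0.0365), and Sesn3 fell. RPTOR is a subunit of mTORC1, and DDIT4 and the sestrins restrain it.

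Cell cycle genes moved with these groups. All 15 had a negative log2 fold change in the node KO libraries (median -0.26), 4 of them fell, with the smallest p for Rrm2 (-0.52, adjusted p = 0.00767), Pcna (-0.30, adjusted p = 0.0232) and Birc5 (-0.41, adjusted p = 0.0415), and their summed level was 1045 to 1304 in MLN-OTII-KO and 1353 to 1546 in MLN-OTII-WT. Macrophage markers (13 genes) summed to 47.1 to 66.7 in MLN-OTII-KO and 65.8 to 84.0 in MLN-OTII-WT, with B cell markers (4 genes in the tables) at 13.7 to 18.3 in MLN-OTII-KO and 13.1 to 16.0 in MLN-OTII-WT. Markers of CD8 T and NK cells (6 genes) summed to 4.18 to 5.24 in MLN-OTII-KO and 7.16 to 10.3 in MLN-OTII-WT, and basophil and mast cell markers (7 genes) to 0.134 to 0.713 in MLN-OTII-KO and 1.94 to 2.54 in MLN-OTII-WT. The part of dividing cells or other cell types in the lower ribosome biogenesis RNA was not tested.

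**Figure D3:**
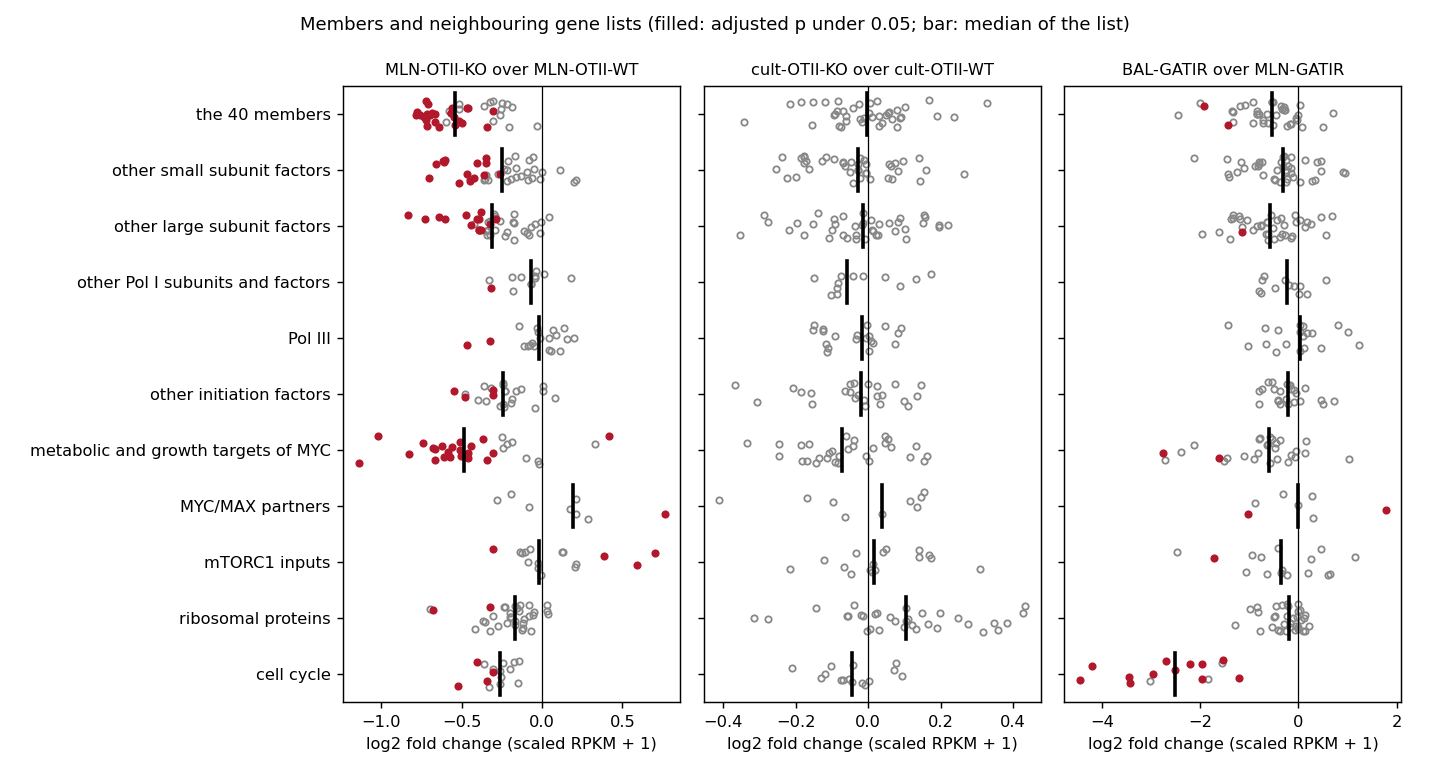
Log2 fold change of the genes tested in each list, for the 40 genes and 10 further lists, in node KO over WT, culture KO over WT and airway over node. Each panel has its own horizontal scale; the 40 genes have a median of -0.54 in the node KO panel, about 0 in culture and -0.53 in the airway panel.

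In culture the same genotypes gave no call. None of the 40 genes rose or fell in cult-OTII-KO against cult-OTII-WT, 20 had a positive and 20 a negative log2 fold change, and the median was -0.00, against 0.00 over all genes. All 40 were tested among 10968 genes, of which limma called 0 (0%). Of the 40 genes 0 had an unadjusted p under 0.05, and limma voom on reads read back called 0 of them and 2 of all genes. With 2 libraries a group the intervals were wide: the lowest bound over the 40 genes was -0.79 (Npm1) and the highest 0.78 (Myc). A fall as large as the node median, -0.54, lay inside the interval of Npm1, Nop58, Dkc1, Gnl3, Utp20 and Polr1b, and outside that of each of the other members. That median is not each gene's own node fall. Among those other members, the own fall of Polr1a (-0.22) and Ddx10 (-0.20) lay inside the culture interval (lower bounds -0.36 and -0.49). That of Ddx21 (-0.78) lay outside (lower bound -0.46). Notch1 did not pass in culture either, at a log2 fold change of -3.14, so a missing call there does not exclude a node effect.

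Myc had 47.7 and 50.9 scaled RPKM in cult-OTII-KO, against 32.4 and 47.0 in cult-OTII-WT (log2 fold change 0.33, 95% interval -0.13 to 0.78, adjusted p = 1). Both KO libraries lay above both WT libraries, the opposite order to the node. Max had 33.0 and 31.0 in cult-OTII-KO, against 32.1 and 31.7 in cult-OTII-WT (95% interval -0.34 to 0.35). Among the polymerase I genes, Tcof1 had 51.3 and 58.2 in cult-OTII-KO, against 40.4 and 52.8 in cult-OTII-WT. Polr1b had 6.35 and 7.40 in cult-OTII-KO, against 7.72 and 8.15 in cult-OTII-WT. Tcof1 overlapped between genotypes, while Polr1b was lower in both KO libraries. Npm1 had 233 and 199 in cult-OTII-KO, against 314 and 238 in cult-OTII-WT, and its log2 fold change of -0.34 (95% interval -0.79 to 0.10) was the most negative of the 40. Gnl3 had 19.4 and 24.3 in cult-OTII-KO, against 28.2 and 20.9 in cult-OTII-WT.

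For the snoRNPs in culture, Nop58 had 52.2 and 68.7 in cult-OTII-KO, against 85.1 and 57.1 in cult-OTII-WT. Rrp9 had 18.8 and 24.3 in cult-OTII-KO, against 16.8 and 21.4 in cult-OTII-WT. Of the small subunit factors, Utp20 had 4.84 and 6.19 in cult-OTII-KO, against 6.87 and 5.29 in cult-OTII-WT. These 3 overlapped between genotypes, with log2 fold changes of -0.22, 0.17 and -0.12. Ddx10 had 13 and 15.3 in cult-OTII-KO, against 16.6 and 13.8 in cult-OTII-WT. Of the large subunit factors, Nle1, a WD repeat protein of 60S maturation, had 10.8 and 10.9 in cult-OTII-KO, against 7.66 and 11.5 in cult-OTII-WT. Ebna1bp2 had 23.0 and 27.1 in cult-OTII-KO, against 22.2 and 24.3 in cult-OTII-WT. WT replicate 1 was the lowest of the 4 libraries for both of the last 2 genes. Eif4a1 had 81.1 and 86.7 in cult-OTII-KO, against 83.8 and 85.3 in cult-OTII-WT. Eif4e had 12.5 and 12.3 in cult-OTII-KO, against 14.5 and 11.6 in cult-OTII-WT. The groups did not overlap in 2 genes that were higher in KO (Myc and Nop56) and 4 that were lower (Npm1, Polr1b, Wdr12 and Rrp1b), against 10.4% and 10.8% of all genes tested. None of the 10 further lists had a call in culture, and their medians ran from -0.07 for MYC's metabolic targets to 0.10 for ribosomal protein genes.

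Whether the knockout effect itself differed between node and culture was tested as an interaction over all 11 OTII libraries. The effect was lower in the node for 7 of the 40 genes, namely Mybbp1a, Nolc1, Rrp12, Nop2, Noc2l, Ebna1bp2 and Ddx21, and higher for 0. Over all 11508 genes tested 3.84% passed, 2.35% with a higher and 1.49% with a lower effect in the node. All 40 differences were negative, with a median of -0.49 against 0.02 over all genes, and 26 had an unadjusted p under 0.05. Mybbp1a, with 47.3 and 54.1 in cult-OTII-KO against 48.3 and 52.2 in cult-OTII-WT beside its node values above, had a difference of -0.79 (SE 0.16, adjusted p = 0.0195). Nolc1, with 27.8 and 34.5 against 31.6 and 31.2 in the same cultures, had -0.74 (adjusted p = 0.0486). In both genes the cultures overlapped and the node groups did not. Ddx21 had 46.6 and 56.2 in cult-OTII-KO, against 57.5 and 51.0 in cult-OTII-WT, and a difference of -0.70 (adjusted p = 0.0295). Noc2l (-0.75, adjusted p = 0.0343), Nop2 (-0.69, adjusted p = 0.0307), Rrp12 (-0.64, adjusted p = 0.0410) and Ebna1bp2 (-0.64, adjusted p = 0.0487) made up the rest. Myc had the largest difference, -0.995 (95% interval -1.60 to -0.39), and did not pass (adjusted p = 0.0774), and neither did Nop56 (-0.77, adjusted p = 0.0590), Nhp2 (-0.79, adjusted p = 0.112) or Polr1b (-0.53, adjusted p = 0.129). Ncl stood at -0.41 (adjusted p = 0.274), Eif4a1 at -0.55 (adjusted p = 0.0670), Eif4e at -0.26 (adjusted p = 0.562), Nop14 at -0.33 (adjusted p = 0.169), and Max at -0.03 (95% interval -0.31 to 0.24, adjusted p = 0.901). None of the 7 calls held in every leave-one-out: the count was 0 without WT replicate 2 or 3 of the node, WT replicate 1 of the culture or KO replicate 2 of the culture, 4, 2 and 1 without KO replicates 1, 3 and 4 of the node, and 5 to 10 without any other library. With libraries of a shared header number averaged, an alternative chosen after seeing the data, 0 of the 40 differences passed, and with no filter on low values 4 did. Among the OTII groups, the plot of single genes shows node KO with the lowest mean for every gene drawn but Max. In culture the genotypes overlap there, apart from Myc, Nop56 and Npm1.

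**Figure D4:**
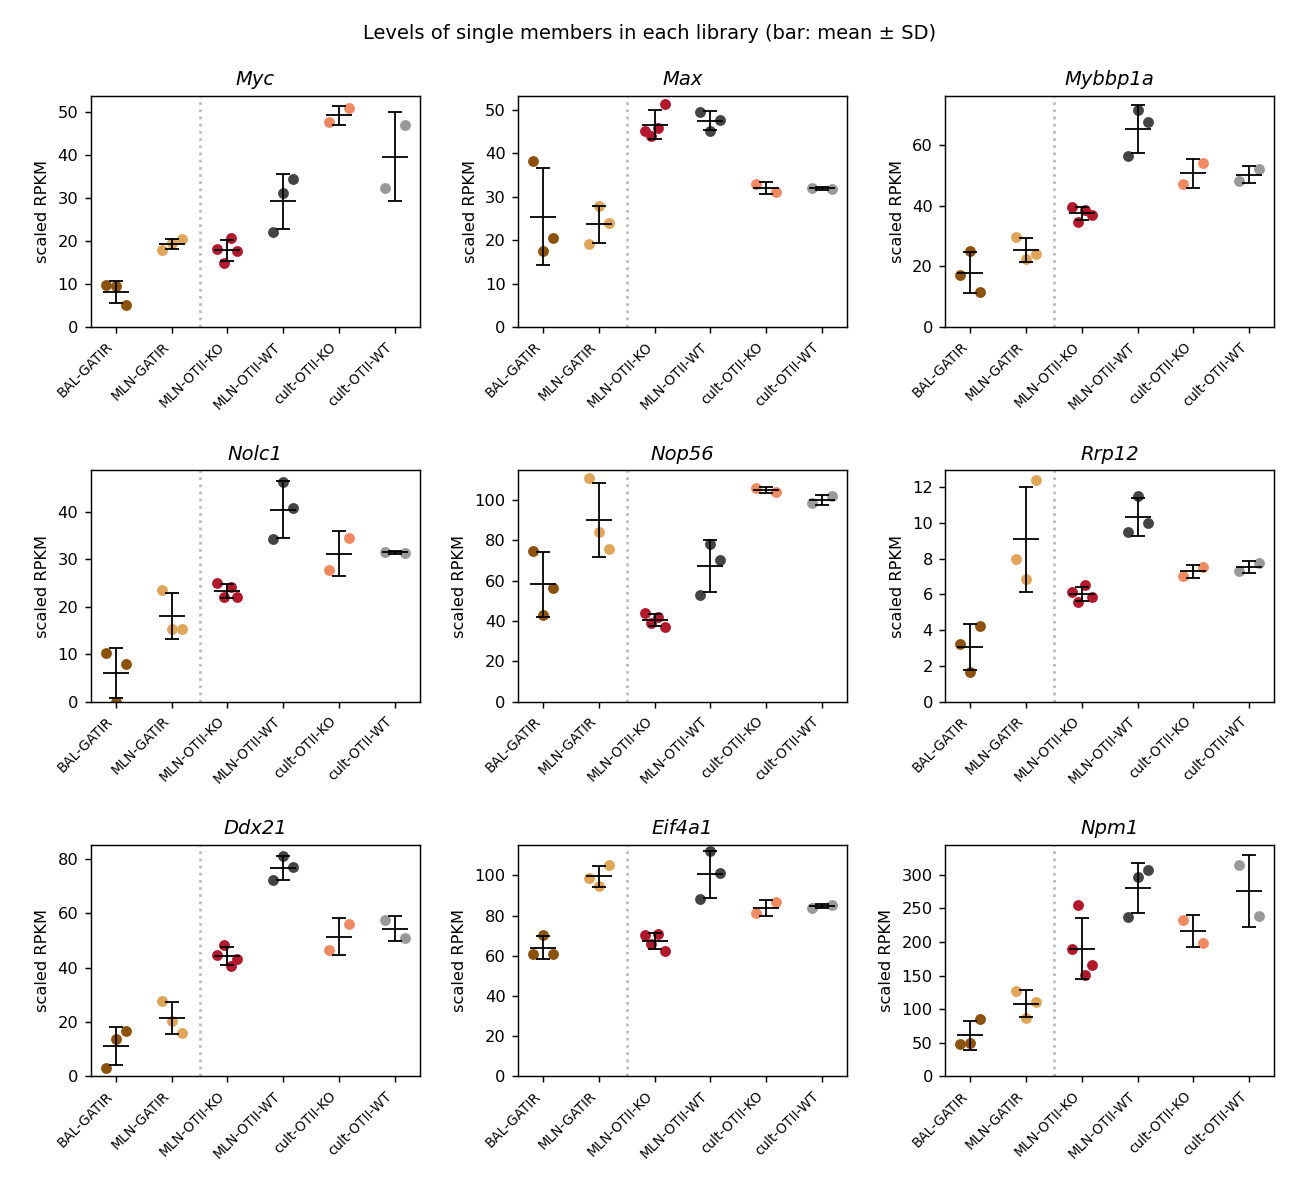
Scaled RPKM of 9 genes in each library of the 6 groups, with the group mean and SD; each panel has its own vertical axis. Node KO means of 37.4 for Mybbp1a and 44.2 for Ddx21 lie below the WT means of 65.3 and 76.7, Max means in the node are 46.5 in KO and 47.5 in WT, and the culture genotypes overlap for most genes.

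Across the 4 OTII groups MLN-OTII-KO had the lowest mean for 31 of the 40 genes and cult-OTII-WT for 7, and MLN-OTII-WT had the highest for 30. In 16 genes every MLN-OTII-KO library lay below every other OTII library. The share of all genes with such an order was not computed, so these counts cannot be called particular to the 40 genes. The node and culture comparisons below share their node libraries with the comparison above, and source, stimulus and time differ together between node and culture.

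In WT cells 12 of the 40 genes rose in the node against culture, 1 fell, and the median log2 fold change was 0.24, against -0.03 over all genes. Over all 11108 genes 31.0% passed, 13.5% higher and 17.5% lower. Max had 49.5, 45.2 and 47.7 in MLN-OTII-WT, against 32.1 and 31.7 in cult-OTII-WT (log2 fold change 0.56, adjusted p = 0.00491). Myc had 22.2, 31.1 and 34.4 in MLN-OTII-WT, against 32.4 and 47.0 in cult-OTII-WT (log2 fold change -0.43, adjusted p = 0.170). The node was above culture for Max in every library, while Myc overlapped. Tcof1 had 65.4, 72.2 and 65.4 in MLN-OTII-WT, against 40.4 and 52.8 in cult-OTII-WT (log2 fold change 0.54, adjusted p = 0.0202). Mybbp1a and Nolc1 did not pass, at 0.37 and 0.35 (adjusted p = 0.0624 and 0.0926), though their groups, with values given above, did not overlap. Ncl, with 142 and 121 in cult-OTII-WT, overlapped (log2 fold change -0.04). Rrp9 had 26.5, 38.5 and 30.0 in MLN-OTII-WT, against 16.8 and 21.4 in cult-OTII-WT (log2 fold change 0.69, adjusted p = 0.0223). Nop56 was the 1 gene that fell, with 53.1, 78.4 and 70.1 in MLN-OTII-WT, against 98.5 and 102 in cult-OTII-WT (log2 fold change -0.59, adjusted p = 0.0302). Noc4l had 30.8, 38.5 and 32.7 in MLN-OTII-WT, against 22.5 and 25.4 in cult-OTII-WT (log2 fold change 0.48, adjusted p = 0.0258). Rrp12 had 9.48, 11.5 and 10 in MLN-OTII-WT, against 7.29 and 7.78 in cult-OTII-WT (log2 fold change 0.40, adjusted p = 0.0450). Rrp9, Nop56, Noc4l and Rrp12 showed no overlap between node and culture. Over all genes tested, every node library lay above every culture library in 27.1%, and below in 30.8%. Bop1 had 46.7, 53.7 and 49.0 in MLN-OTII-WT, against 30.5 and 36.7 in cult-OTII-WT (log2 fold change 0.56, adjusted p = 0.0118). Ddx21, with WT values given above, rose by 0.49 (adjusted p = 0.0118), and Gar1, Nop16, Rrp1b, Nle1 and Ebna1bp2 rose by 0.46 to 0.68. Eif4a1 (0.24) and Eif4e (-0.11) did not pass. Only the calls of Max and Bop1 held whichever library was left out, and 2 to 10 genes rose under these omissions, with 2 without node WT replicate 2, 4 without culture WT replicate 1 and 6 without node WT replicate 3. With libraries of a shared header number averaged 5 genes rose, and with no filter on low values 7 rose and 0 fell.

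In KO-labelled cells 12 of the 40 genes fell in the node against culture and 1 rose (median -0.22, against -0.02 over all genes). Over all 11227 genes 29.0% passed, 13.7% higher and 15.3% lower. Myc had 18.1, 14.9, 20.7 and 17.7 in MLN-OTII-KO, against 47.7 and 50.9 in cult-OTII-KO (log2 fold change -1.42, SE 0.13, adjusted p = 1.63e-04). Nop56 had 44, 39.2, 42.0 and 37.2 in MLN-OTII-KO, against 106 and 104 in cult-OTII-KO (log2 fold change -1.35, adjusted p = 5.99e-05). These were the largest falls among the 40 genes, and the only calls that held whichever library was left out. Polr1a had 10.9, 9.98, 10.9 and 10.4 in MLN-OTII-KO, against 16.7 and 14.8 in cult-OTII-KO (log2 fold change -0.54, adjusted p = 0.00741). Nop14 had 14.5, 15.8, 15 and 14.4 in MLN-OTII-KO, against 21.2 and 22.6 in cult-OTII-KO (log2 fold change -0.53, adjusted p = 0.00570). Rrs1, an assembly factor of the 5S particle, had 11.2, 9.47, 11.3 and 8.27 in MLN-OTII-KO, against 14.5 and 19.5 in cult-OTII-KO (log2 fold change -0.70, adjusted p = 0.0149). Culture was higher in every library for all 3, as it was for 25.9% of all genes tested. Nop2 had 19.9, 17.0, 19.4 and 19.9 in MLN-OTII-KO, against 25.5 and 27.4 in cult-OTII-KO (log2 fold change -0.45, adjusted p = 0.0162). Ncl had 118 and 129 in cult-OTII-KO and fell by 0.46 in the node on the log2 scale (adjusted p = 0.0361). Mybbp1a (-0.43), Gnl3 (-0.61), Nolc1 (-0.40), Noc2l (-0.47) and Eif4a1 (-0.32) also fell, with adjusted p between 0.0184 and 0.0465. Nhp2, with 44 and 67.2 in cult-OTII-KO, Wdr43, with 24.7 and 26.6, and Eif4e did not pass, at -0.51, -0.35 and -0.37 (adjusted p = 0.0618, 0.0851 and 0.130). Max again rose, with 45.2, 43.9, 45.7 and 51.4 in MLN-OTII-KO, against 33.0 and 31.0 in cult-OTII-KO (log2 fold change 0.52, adjusted p = 0.00679, but 0.0666 without culture KO replicate 2). The count of falls was 6 without node KO replicate 4, 7 without culture KO replicate 1 and 3 without culture KO replicate 2. Cell cycle genes were lower in the node in both genotypes, with 11 of 15 falling in KO and 8 of 15 in WT, and their part in these results was not tested.

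The last comparison set Th2 cells of the airway against those of the node in GATIR mice. Of the 39 genes tested 2 fell in the airway, Nop58 and Bop1, and none rose, while 35 had a negative log2 fold change. The median was -0.53, against -0.07 over all 10111 genes tested, of which 5.27% passed, 2.97% higher and 2.30% lower. A count of 2 among 39 genes is too small to read against that share. Every airway library lay below every node library in 15 genes, against 13.8% of all genes tested. Utp20, a processome scaffold, was not tested, with 0, 2.76 and 0.697 in BAL-GATIR, against 0.272, 1.65 and 0.749 in MLN-GATIR. Spread was larger here than in the OTII libraries: 12317 to 14385 genes were listed at 0 in an airway library, and Gar1, Nop2 and Noc3l were listed at 0 in airway replicate 2.

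**Figure D5:**
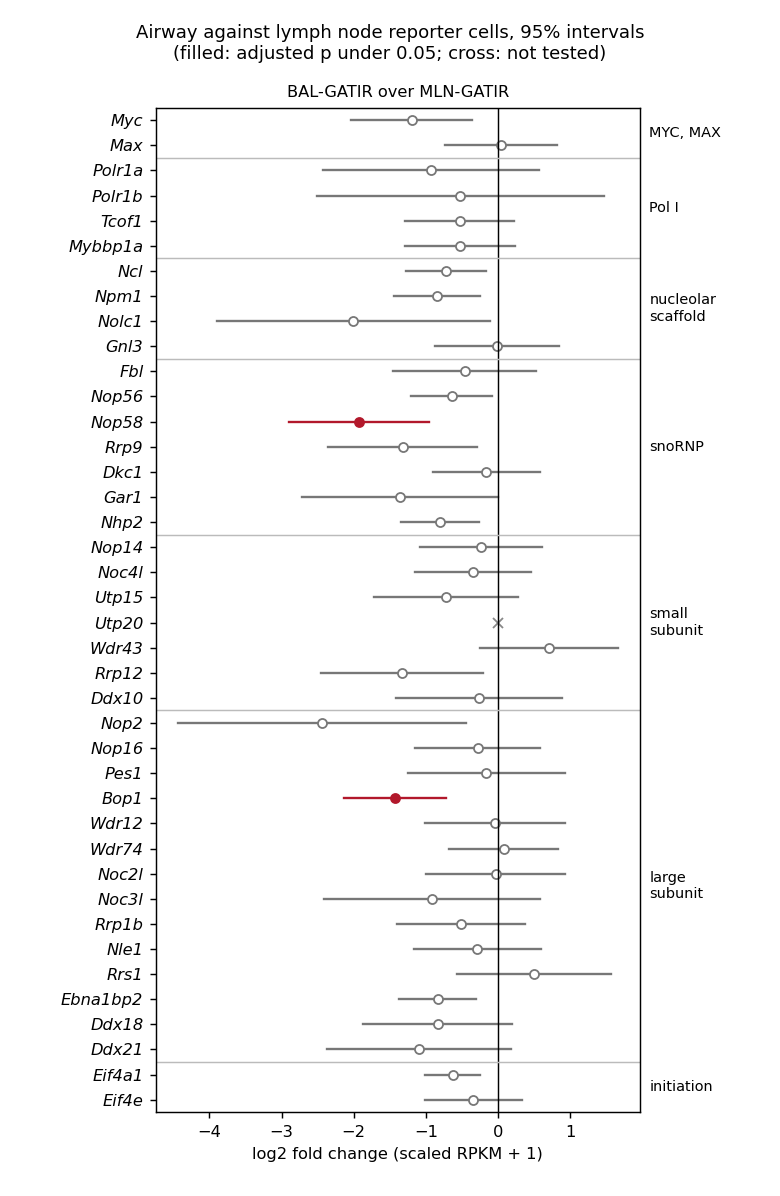
Log2 fold change of BAL-GATIR over MLN-GATIR for each of the 40 genes, with its 95% interval; filled points passed at an adjusted p of 0.05 and a cross marks Utp20, which was not tested. Of 39 genes 35 lie below 0, and Nop58 (-1.93) and Bop1 (-1.43) passed.

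Myc had 9.81, 9.49 and 5.14 scaled RPKM in BAL-GATIR, against 18, 19.5 and 20.4 in MLN-GATIR. Every airway library was lower, with means of 8.15 ± 2.61 and 19.3 ± 1.20, yet the log2 fold change of -1.20 (95% interval -2.03 to -0.36) did not pass (adjusted p = 0.108). Max had 38.1, 17.6 and 20.6 in BAL-GATIR, against 19.1, 27.8 and 23.9 in MLN-GATIR (log2 fold change 0.04, adjusted p = 0.965). Its sign turned with the scaling, at -0.09 on RPKM as deposited and -0.18 with upper quartile scaling. Nop58 had 6.64, 18.3 and 24.2 in BAL-GATIR, against 64.4, 46.0 and 65.8 in MLN-GATIR (log2 fold change -1.93, SE 0.43, adjusted p = 0.0351). Bop1 had 10.6, 20.7 and 15.9 in BAL-GATIR, against 51.9, 36.7 and 40.8 in MLN-GATIR (log2 fold change -1.43, SE 0.31, adjusted p = 0.0321). Both calls were lost when any node library was left out, and that of Bop1 also without airway replicate 3, at adjusted p of up to 0.181 and 0.175.

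Among the other roles, Tcof1 had 35.5, 14.6 and 28.7 in BAL-GATIR, against 39.7, 34.4 and 34.8 in MLN-GATIR. Mybbp1a had 17.1, 25.1 and 11.7 in BAL-GATIR, against 29.8, 22.3 and 24.2 in MLN-GATIR. Both polymerase I genes had a log2 fold change of -0.53 and neither passed (adjusted p = 0.429 and 0.433). Npm1 had 48.2, 49.2 and 85.6 in BAL-GATIR, against 127, 86.5 and 111 in MLN-GATIR (log2 fold change -0.85, adjusted p = 0.108). Ncl had 28.9, 36.0 and 27.1 in BAL-GATIR, against 63.9, 42.8 and 47.7 in MLN-GATIR (log2 fold change -0.72, adjusted p = 0.141). Nhp2 had 53.6, 42.3 and 38.5 in BAL-GATIR, against 102, 74.9 and 63.4 in MLN-GATIR (log2 fold change -0.81, adjusted p = 0.0940). In these 3 genes the airway libraries all lay below the node libraries without passing the test. Rrp12 had 3.25, 1.66 and 4.23 in BAL-GATIR, against 7.98, 6.84 and 12.4 in MLN-GATIR (log2 fold change -1.33, adjusted p = 0.174). Wdr43 went the other way and overlapped, with 18.9, 54.9 and 22.0 in BAL-GATIR, against 13.6, 16.5 and 22.4 in MLN-GATIR (log2 fold change 0.70, adjusted p = 0.409). Ebna1bp2 had 28.0, 20.9 and 25.4 in BAL-GATIR, against 49.5, 40.3 and 44.9 in MLN-GATIR (log2 fold change -0.84, adjusted p = 0.0838). Eif4a1 had 60.7, 70.5 and 60.9 in BAL-GATIR, against 98.5, 94.8 and 105 in MLN-GATIR (log2 fold change -0.63, adjusted p = 0.0718). Both were lower in every airway library. Eif4e had 16.0, 26.5 and 17.5 in BAL-GATIR, against 28.0, 21.8 and 25.7 in MLN-GATIR, with overlap.

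The most negative log2 fold changes, named after their values were seen, were those of Nop2 and Nolc1, which did not pass. Nop2 had 3.88, 0 and 15.9 in BAL-GATIR, against 28.4, 25 and 16.4 in MLN-GATIR (log2 fold change -2.44, adjusted p = 0.163). Nolc1 had 10.2, 0.0142 and 7.84 in BAL-GATIR, against 23.6, 15.2 and 15.2 in MLN-GATIR (log2 fold change -2.0, adjusted p = 0.222). With 1 library left out the values ranged from -3.42 to -1.38 for Nop2 and from -2.64 to -0.91 for Nolc1.

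Of the 39 genes 14 had an unadjusted p under 0.05, and limma voom on reads read back called 0, as did limma with no filter on low values. The scaling shifted the whole comparison: on RPKM as deposited the median of all genes was -0.20 and that of the 40 genes' tested members -0.68, with 229 genes higher and 317 lower, against 300 higher and 233 lower in the main scaling, and with scaling by the upper quartile the medians were -0.26 and -0.75, with 152 higher and 258 lower. Relative to all genes the members' median was -0.46, -0.48 and -0.49 in the 3 scalings. Of the other lists, 0 of 40 small subunit factors (median -0.31), 1 of 40 large subunit factors (Pa2g4, -1.16, adjusted p = 0.0411; median -0.59) and 0 of 34 ribosomal protein genes (median -0.20) fell, and none rose. Among MYC's metabolic targets 2 of 28 fell (Ran, -1.62, adjusted p = 0.0155, and Shmt1, -2.76, adjusted p = 0.0240; median -0.60). The RNA polymerase III list had a median of 0.03, the further polymerase I list -0.23 and the further initiation list -0.22, with no call in any of them.

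Other cell types and division moved with the airway comparison. Cell cycle genes fell in 12 of 15 (median -2.52), with a summed level of 190.4 to 255 in BAL-GATIR and 1017 to 1447 in MLN-GATIR. Macrophage markers (13 genes) summed to 3445 to 7756 in BAL-GATIR and to 79.9 to 128 in MLN-GATIR, where Adgre1, Mrc1, Marco, Itgax, Fcgr3 and C1qa were listed at 0 in every library. The 7 basophil and mast cell markers summed to 148 to 276 in BAL-GATIR and 554 to 880.1 in MLN-GATIR, with Fcer1a, Ms4a2, Gata2 and Prss34 at 0 in both groups. The 8 eosinophil and neutrophil markers summed to 30.9 to 58.9 in BAL-GATIR and were all at 0 in MLN-GATIR, and the 6 epithelial markers to 12.8 to 90.2 in BAL-GATIR and 0.241 to 9.27 in MLN-GATIR. The 4 B cell markers summed to 3.72 to 35.9 in BAL-GATIR and 34.8 to 54.8 in MLN-GATIR, and 1 of them, Cd79b, fell (log2 fold change -3.81, adjusted p = 0.00753). The 6 markers of CD8 T and NK cells summed to 9.2 to 22.7 in BAL-GATIR and 6.78 to 16.6 in MLN-GATIR. Among these Klrk1 rose, with 3.38 ± 1.19 in BAL-GATIR and a listing at 0 in every MLN-GATIR library (adjusted p = 0.0353). Klrk1 met the minimum for the test through the airway libraries alone, so it could enter only as higher there. The 7 T cell markers summed to 3412 to 3831 in BAL-GATIR and 3175 to 3532 in MLN-GATIR. The part of these cells and of division in the airway values was not tested.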

How the data were processed

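Per the file headers and the submitters' processing notes, the authors deposited RPKM per gene and library, and the notes name HISAT2 2.0.4, HOMER, DESeq2 and mm10 without saying what each did; which annotation and strand setting were used is not given in the sources used here. All 17 libraries were grouped by title. Multiplied by transcript length, RPKM rose in steps of 1 read (tolerance 0.1, checked below 100 reads, 100.0% of values whole), which gave depths of 16.3 to 27.5 M reads (M for mega).

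RPKM was divided by a median-of-ratios factor over 6796 genes with RPKM of at least 1 in every library. With R 4.3.3, limma 3.58.1 was fitted to log2(scaled RPKM + 1) with a mean-variance trend, two-sided. Genes entered with scaled RPKM of at least 1 in at least the number of libraries in the smaller group. Benjamini-Hochberg adjustment ran over all genes tested, with a threshold of 0.05, and each pair of groups had its own fit. A log2(value + 1) scale understates changes of low genes. The test was also tried on simulated data built from the means and spread of these libraries, and its outcome is not given here. Tables were handled with Python 3.11.15, pandas 2.3.3 and numpy 2.4.6.

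Alternatives were other scalings, pseudocounts, filters, limma voom on reads read back, 1 fit over all OTII libraries, a replicate block and leaving out libraries. Given library by library were Myc, Max and, in each comparison, the 2 genes of each role with the smallest p; further lists are given by counts and their smallest p. The genes and lists were chosen with earlier results of these data known. The members' names came from a list, not from these fits. Genes that share reads with copies or lie on opposite strands are uncertain.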

Additional observations from a re-analysis of the deposited data

Results flagged for a closer look

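In 7 of the 40 genes the difference between the knockout effects in node and culture passed the test (limma, adjusted over all genes tested, over 11 libraries). The differences were -0.79 for Mybbp1a, -0.75 for Noc2l, -0.74 for Nolc1, -0.70 for Ddx21, -0.69 for Nop2, -0.64 for Rrp12 and -0.64 for Ebna1bp2 on the log2 scale. In each of these genes every node KO library lay below every node WT library, while the 2 culture KO and the 2 culture WT libraries overlapped. Leaving out 1 library ended the call of Mybbp1a in 4 of 11 cases (adjusted p up to 0.104) and that of Ebna1bp2 in 10 of 11 (up to 0.200). None of the 7 calls was left when libraries of a shared header number were averaged, an alternative chosen after seeing the data, or under a replicate block (0 of 40 in each).

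In MLN-OTII-KO, the 1 group with 4 libraries, the level of Gnl3 was 18 in replicate 2 and 12.2 to 13.1 in the others. This was the only one of 40 levels in which the gap of 1 library exceeded Dixon's 95% critical share of the range, and chance alone gives about 1 such group in 20. The cause was not tested.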

How the results depend on the processing

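Counts of called genes moved with some settings. In the node, 25 of the 40 genes fell, and 7 with a replicate block. In the airway 2 fell, 4 on RPKM as deposited, 1 with a pseudocount of 0.1, 0 with no filter on low values, 0 with limma voom, 1 with a replicate block and 0 without airway replicates 1 and 2. Node against culture in WT gave 12 rises and 1 fall, 7 and 0 with no filter, 5 rises with libraries of a shared header number averaged, and 2 falls with a replicate block or 1 fit over all OTII libraries. In KO the replicate block left 0 rises and 2 falls. The interaction gave 7 falls, 4 with no filter, 0 with a replicate block and 0 with averaged libraries. Leaving out 1 library gave 15 to 32 falls in the node, 0 to 3 in the airway, 2 to 10 rises and 0 to 1 falls for WT node against culture, 0 to 1 rises and 3 to 16 falls for KO, and 0 to 10 for the interaction.

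Nothing in the labels says that same-numbered libraries belong together, and the bar for pairing (at least 3 pairs, each correlated above 0.1) was not met. Correlations of their deviations from group means (4590 genes) were -0.551 to 0.004 in the node, -0.284 in culture, -0.008 to 0.015 for airway and node, -0.12 to 0.466 for WT and 0.133 to 0.177 for KO across node and culture. With 2 libraries in a group the deviations mirror each other, so these values cannot show that pairing is absent. Node libraries of different numbers also correlated, from -0.651 (KO replicate 1 with WT replicate 3) to 0.704 (KO replicate 2 with WT replicate 3). No block with another matching was fitted in the node. In culture the replicate block called 31 genes higher and 34 lower, 0 of them members. The crossed block in culture, chosen after seeing the data, called 3 higher and 5 lower, 0 of them members.

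Reversals of sign never involved a called value. Leaving out 1 library gave Max -0.08 to 0.00 in the node, -0.08 to 0.01 in the interaction and -0.28 to 0.26 in the airway. In culture it gave Max -0.04 to 0.05, Gnl3 -0.36 to 0.05, Nop58 -0.50 to 0.07, Rrp9 -0.01 to 0.34, Utp20 -0.28 to 0.04, Ddx10 -0.22 to 0.03, Nle1 -0.07 to 0.45, Ebna1bp2 -0.01 to 0.22, Eif4e -0.21 to 0.09 and Eif4a1 -0.06 to 0.04. For WT node against culture it gave Ncl -0.16 to 0.08 and Eif4e -0.26 to 0.04. On RPKM as deposited Eif4a1 was at 0.01 in culture and Max at -0.09 in the airway. With the upper quartile Max was at -0.02 in culture and -0.18 in the airway, and without airway replicates 1 and 2, an omission chosen after seeing the data, at -0.17. The causes were not tested. Where 1 library was left in a group, it was assumed to vary like the others. Depth limits genes of few reads, such as Utp20 and Nolc1 in single airway libraries.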

Other observations

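The 10 relatives of MYC and MAX were read in all 6 groups. Mycn, the neuronal paralog of Myc, was near 0 in node cells, at 0.0746 ± 0.0161 scaled RPKM in MLN-OTII-KO and 0.0359 ± 0.0311 in MLN-OTII-WT, and had 1.44 ± 0.105 in cult-OTII-KO and 2.26 ± 0.520 in cult-OTII-WT. Mycn met the minimum for the test through the culture libraries alone, so it could enter only as lower in the node. It fell in node against culture in both genotypes (log2 fold change -1.18, adjusted p = 4.97e-04 in KO and -1.65, adjusted p = 3.47e-04 in WT), and both calls held whichever library was left out. Mxd4, a repressor that binds MAX, rose in node against culture in both, with 70.7 ± 14.8 in MLN-OTII-KO, 40.6 ± 4.46 in MLN-OTII-WT, 29.1 ± 3.49 in cult-OTII-KO and 26.4 ± 5.40 in cult-OTII-WT (log2 fold change 1.23 in KO, adjusted p = 0.00265, and 0.61 in WT, adjusted p = 0.0213, the WT call lost without 3 of the 5 libraries). In the airway Mxd1, another such repressor, rose, with 28.3 ± 11.6 in BAL-GATIR and 7.26 ± 2.24 in MLN-GATIR (log2 fold change 1.78, adjusted p = 0.0455), and Mxd3 fell, with 25.6 ± 4.09 in BAL-GATIR and 53.4 ± 6.0 in MLN-GATIR (log2 fold change -1.04, adjusted p = 0.0369). Each of these 2 calls was lost in 5 of the 6 cases in which 1 library was left out.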
